A study of Apis mellifera with 2 samples.

Results

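The nuclei described here were those ranked highest for 4 genes in brains of honeybee (Apis mellifera) foragers: Antp, LOC411706, LOC552149 and LOC410915. Within each library, barcodes with 200 to 5000 genes were ordered by the summed UMIs of the 4 genes over total UMIs, where a UMI (unique molecular identifier) marks 1 captured RNA molecule. The top 1500 of 19945 nuclei were taken in the BRC library (7.52%) and the top 200 of 19999 in the ddH2O library (1.00%), 1700 of 39944 nuclei in all, and these are called members below. The BRC library came from foragers given bromocriptine, which activates dopamine receptors of the D2 type, and the ddH2O library from foragers given water. The samples are titled as fed, whereas the treatment field and the study's methods give a spray over the bees. Both libraries were single-nucleus RNA-seq from dissected brains, pooled within each group (15 foragers per group in the series text, whereas the study's methods give a larger pool drawn from several colonies), with the trachea, ocelli and compound eyes removed before extraction. Strain and age are not given in the labels. The study's methods give the bees as Apis mellifera carnica. With 1 library per condition there is no replicate check, so no p-value is given, and all intervals are 95% intervals that cover counting error only.

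Depth and treatment differed together. The median was 2104 UMIs in BRC and 3327 in ddH2O, and the shallowest barcode held 1142 and 2475 UMIs. Of all barcode sequences 120 occurred in both libraries, 11 of them among the BRC members and 1 among the ddH2O members. Members were shallower than the other nuclei in BRC, with a median of 1836.5 against 2127 UMIs and a 95th percentile of 5564 against 14225 UMIs. In ddH2O the medians were 3279 and 3327 UMIs and the 95th percentiles 5620 and 6776. Nuclei scored as doublet-like made up 14.9% of members and 16.0% of other nuclei in BRC, against 19.0% and 16.0% in ddH2O, and were kept.

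Antp encodes a homeodomain transcription factor of the Hox cluster. Hox genes give segments their identity along the body axis, and in Drosophila Antp acts mainly in the thorax, its nervous system and its epidermis, while the anterior brain forms largely without Hox expression. The other 3 genes carry only a locus number in the files and in the RefSeq gene table used here, which holds no product descriptions, so no role is given for them. On the Amel_HAv3.1 assembly Antp lies on linkage group 16 from 3881429 to 4037081, next to the Hox gene Ubx at 3674143 to 3820751. LOC552149 (12686465 to 12716569) and LOC410915 (12722584 to 12729030) lie on linkage group 3 with 6014 bases and 1 annotated gene between them. LOC411706 lies on linkage group 7 from 10556988 to 10561796. All 4 are annotated as protein-coding.

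Most members held no Antp UMI. Antp was found in 242 of the 1500 BRC members (16.1%, exact binomial interval 14.3% to 18.1%) and in 60 of the 200 ddH2O members (30%, 23.7% to 36.9%). It gave 3.73% of the UMIs of the 4 genes in BRC members and 5.75% in ddH2O members. The ranking rested mainly on LOC552149, with 68.9% of those UMIs in BRC and 49.7% in ddH2O. LOC411706 gave 15.6% and 32.9%, and LOC410915 11.8% and 11.6%. Members held 42.7% of all Antp UMIs of the BRC library and 29.0% of those of the ddH2O library. A name from Antp alone therefore goes against the counts, and the nuclei are called by their rule.

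The values that chose the members are given as a description. Antp stood at 96.6 CPM (UMIs per 1000000 UMIs) in BRC members (86.7 to 107) and 6.67 in the other nuclei, and at 156 CPM in ddH2O members (129 to 188) and 3.66 in the others. LOC411706 stood at 404 and 3.24 CPM in BRC and at 893 and 7.88 CPM in ddH2O. LOC552149 stood at 1782 and 47.3 CPM in BRC and at 1349 and 26.7 CPM in ddH2O. LOC410915 stood at 305 and 14.1 CPM in BRC and at 315 and 7.26 CPM in ddH2O. Levels of different genes are not given per length and are not compared with each other. As a background for free RNA, the cluster with the highest level of the Kenyon cell marker PLCe held 2.27 CPM of Antp in BRC (1557 nuclei) and 1.20 CPM in ddH2O (2347 nuclei), and 19.1 and 15.6 CPM of LOC552149.

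**Figure D1:**
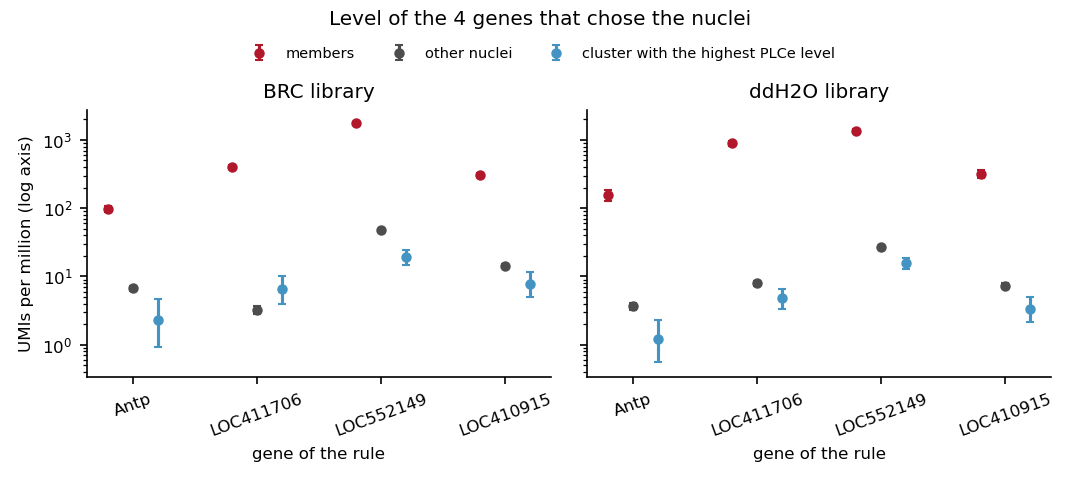
CPM, on a log axis, of the 4 genes of the rule in members, in the other nuclei of the same library and in the cluster with the highest PLCe level; bars are exact 95% Poisson intervals. Members lie above both other sets for all 4 genes because the genes chose them, with Antp at 96.6 in BRC and 156 in ddH2O members.

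At 1 depth of 1000 UMIs per nucleus, which no nucleus fell short of, an Antp UMI was found in 10.7% of BRC members and 0.596% of the other BRC nuclei. The ddH2O shares were 13.0% and 0.288%, and in the clusters with the highest PLCe level the share was 0.257% (BRC, median 1801 UMIs) and 0.170% (ddH2O, median 2969 UMIs). LOC411706 was found at this depth in 16.9% of BRC and 47.5% of ddH2O members. LOC552149 was found in 67.3% and 71.0%, and LOC410915 in 26.5% and 24.0%.

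The cut was low in BRC and higher in ddH2O. The last BRC nucleus inside held 1 UMI of the 4 genes among 1320, and the first outside held the same. The last ddH2O nucleus inside held 5 among 3804 UMIs, and the first outside 4 among 3049. Of the BRC members, 221 held a single UMI of the 4 genes and 797 held at least 4, with a highest value of 64. All 200 ddH2O members held at least 4, with a highest value of 46. By the ddH2O cut 962 BRC nuclei would have been taken (4.82%, 4.53% to 5.13%) against 200 in ddH2O (1.00%, 0.867% to 1.15%), and by the BRC cut 1502 (7.53%) and 338 (1.69%).

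The 4 genes occurred together more in ddH2O than in BRC members. One gene alone was found in 797 BRC members (53.1%) and in 14 ddH2O members (7.0%), and 3 or 4 genes in 151 and 28 BRC members and in 88 and 25 ddH2O members. Total UMIs and the cut differ between these sets. As a further description, each gene was measured in nuclei ranked on the other 3 alone. Because all 4 genes were picked as markers from these data, this is no test of whether they go together. Antp stood at 52.1 CPM in the top 1500 BRC nuclei and at 8.97 CPM in the rest, a ratio of 5.81 (4.91 to 6.85), and at 109 and 4.10 CPM in the top 200 and the rest of ddH2O, a ratio of 26.4 (20.4 to 33.9). The ratio of LOC411706 was 49.6 in BRC and 68.8 in ddH2O. That of LOC552149 was 8.26 and 29.6, and that of LOC410915 was 12.3 and 36.3. Of the BRC nuclei with LOC552149, 7.32% also held Antp, which was found in 3.05% of all BRC nuclei, and 41.1% of those with Antp held LOC552149, found in 17.1% of all. In ddH2O 6.04% of the nuclei with LOC552149 held Antp (1.42% of all), and 39.9% of those with Antp held LOC552149 (9.36% of all).

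The members lay mostly in 1 cluster in ddH2O and were spread over many in BRC. Nuclei of each library were clustered without the 4 genes. In ddH2O, 177 of 200 members (88.5%, 83.2% to 92.6%) lay in cluster 14, which held 484 nuclei and had the highest level of all 4 genes. Members lay in 11 of the 24 ddH2O clusters, with 23 of them outside cluster 14. In BRC, members lay in 49 of 56 clusters, with 611 (40.7%, 38.2% to 43.3%) in cluster 6, 194 in cluster 18, 97 in cluster 8, 90 in cluster 14 and 508 in the remaining clusters. Cluster numbers are separate in each library.

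The 4 largest BRC groups carried the 4 genes in different proportions. Members in BRC cluster 6 held 2425 CPM of LOC552149 but 32.6 CPM of Antp and 17.97 CPM of LOC411706. Members in cluster 18 held 2655 CPM of LOC411706, 2375 CPM of LOC552149, 835 CPM of LOC410915 and 173 CPM of Antp. Members in cluster 14 held 595 CPM of Antp (478 to 732) and 66.8 CPM of LOC411706, and those in cluster 8 held 209 CPM of Antp and 1074 CPM of LOC552149. Members in ddH2O cluster 14 held 157 CPM of Antp, 965 of LOC411706, 1380 of LOC552149 and 310 of LOC410915. Over all nuclei of a cluster, Antp was highest in BRC cluster 50 (171 CPM, 39 nuclei, 4 members) and in BRC cluster 14 (168 CPM, 444 nuclei). The second-highest ddH2O cluster held 15.5 CPM, against 78.6 CPM in cluster 14.

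**Figure D2:**
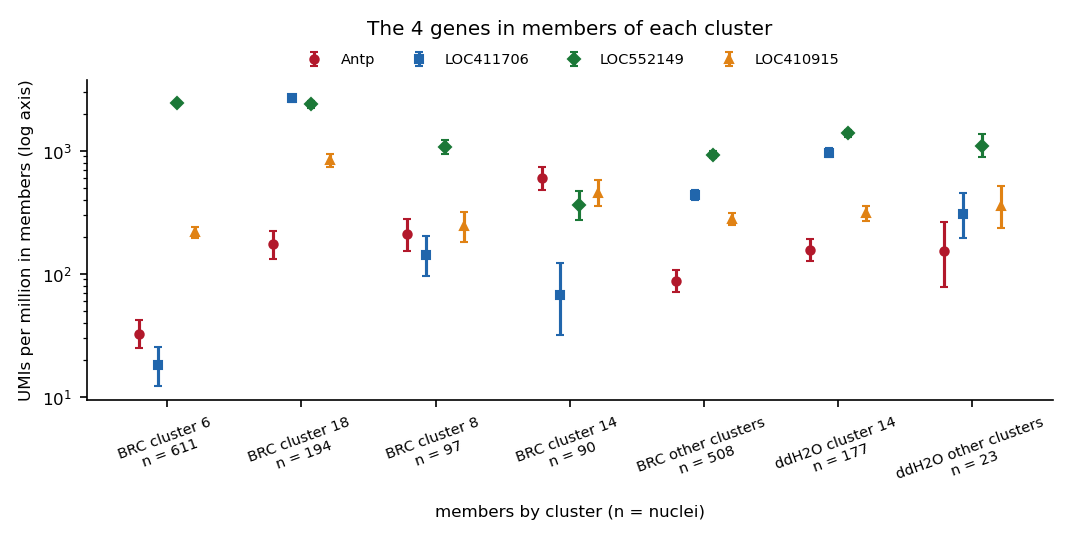
CPM, on a log axis, of the 4 genes in the members of the 4 BRC clusters and the 1 ddH2O cluster that hold most of them, and in the members of all other clusters; bars are exact 95% Poisson intervals. LOC411706 stands at 17.97 in members of BRC cluster 6, against 2655 in BRC cluster 18 and 965 in ddH2O cluster 14.

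Cluster 18 of BRC was split by the rule. Of its 360 nuclei 194 were members (53.9%), and LOC411706 was found in 72.7% of these and in 1.20% of its other 166 nuclei, at median depths of 1459.5 and 1583.5 UMIs. In ddH2O cluster 14 the nuclei outside the top 200 also carried the genes, with LOC411706 in 36.8% and Antp in 14.7% of them. LOC411706 and Antp are genes of the rule, so the cuts limit the shares outside the members, by more in BRC. These shares therefore test nothing. Nuclei scored as doublet-like made up 34.1% of ddH2O cluster 14 and 0.556% of BRC cluster 18. With doublet-like nuclei left out first, 511 genes were 2-fold or more higher in ddH2O members instead of 518, and 742 in BRC members instead of 743.

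Members were next set against the other nuclei of their library. A gene was called where it had at least 100 UMIs over both sides and differed by 2-fold or more, with the 4 genes of the rule left out. Of 10120 genes in BRC, 743 were higher in members (7.34%) and 825 lower (8.15%). Of 9858 genes in ddH2O, 518 were higher (5.25%) and 491 lower (4.98%), of which 377 (3.82%) and 140 (1.42%) had a counting interval that excluded equal levels. For BRC those numbers were 742 (7.33%) and 721 (7.12%). The BRC split depended on the settings, with 570 higher and 1081 lower from means of log-normalized values, 785 and 1212 in the top 750 nuclei, and 592 and 251 in the top 3000. Because members were shallower than the others in BRC, ratios there are also given against nuclei of like depth, those in the 5th to 95th percentile of the members' total UMIs, where this ends a call or turns a direction. Since the nuclei were chosen by genes of the same counts, these numbers describe the members and test nothing. Of the 20 largest BRC ratios (12.9-fold to 62.7-fold) 5 belonged to genes with a symbol, and of the 20 largest ddH2O ratios (11.7-fold to 29.6-fold) 1 did, so the named families below are a minority of what was raised.

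Odorant-binding proteins, small secreted carriers of odorants and other ligands, led the named genes of BRC members. Of 17 family members tested 8 were higher and 1, Obp9, was lower, and the family summed to 2634 CPM in members and 301 CPM in the other nuclei. Obp21 stood at 1198 against 96.0 CPM (12.5-fold, 12.01 to 13.0), Obp19 at 513 against 26.4 CPM (19.4-fold, 18.2 to 20.7) and Obp16 at 401 against 20.3 CPM (19.7-fold, 18.3 to 21.3). Obp17, Obp18, Obp12, Obp4 and Obp5 were 3.997-fold to 15.5-fold higher, while Obp10 stood at 0.942-fold (0.776 to 1.13). Some of these ratios turned under other settings: the log2 ratio of Obp5 was -0.12 with nuclei thinned to 1000 UMIs, that of Obp12 was -1.38 without cluster 6, and with nuclei ranked on Antp alone those of Obp5, Obp12 and Obp4 were -2.17, -0.56 and -0.36. In ddH2O 1 of 8 tested was higher, Obp21, which stood at 19.2 against 2.33 CPM (8.22-fold, 4.40 to 14.2) on 14 UMIs found in 1.5% of the members.

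The Obp genes followed cluster 6. Obp21 stood at 2209 CPM in its members, at 1517 CPM in its 281 other nuclei, at 158 CPM in members of cluster 18 and at 247 CPM in members of cluster 14. Obp19 stood at 957, 505, 29.8 and 20.04 CPM in the same sets. Where BRC nuclei were ranked on Antp alone, 608 nuclei held a UMI, and in these Obp16 was lower than in the rest (log2 ratio -0.14), as was Obp18 (log2 ratio -0.33).

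Enzymes of detoxification and of redox balance were also higher in BRC members, 6 of 14 tested, and in ddH2O 3 of 12 were higher and 1 lower. Cyp4g11, a cytochrome P450 of the family that makes cuticular hydrocarbons, stood at 91.6 against 6.25 CPM (14.7-fold, 12.7 to 16.9) in BRC. Cyp6as5 was 12.9-fold (11.1 to 14.9), CYP6AQ1 10.5-fold (8.57 to 12.9) and the glutathione transferase GstD1 9.35-fold higher (8.53 to 10.3). Cat, the catalase gene, was 3.88-fold higher in BRC members (3.42 to 4.38) and 5.54-fold higher in ddH2O members (3.06 to 9.29, 15 UMIs). The 3 P450 genes had 2 or 3 UMIs each in ddH2O members.

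Chemosensory proteins, a second family of small soluble proteins, were highest in ddH2O members. CSP3 stood at 2227 against 190 CPM in ddH2O (11.7-fold, 11.1 to 12.3), the only gene with a symbol among the 20 largest ratios there. In BRC it stood at 1145 against 575 CPM (1.99-fold, 1.93 to 2.05), just under the threshold, and against nuclei of like depth its log2 ratio was 0.33 instead of 0.99. CSP2 was higher in both libraries, at 141 against 25.1 CPM in ddH2O (5.62-fold, 4.57 to 6.86) and 29.2 against 10.1 CPM in BRC (2.89-fold, 2.33 to 3.55). By cluster, CSP3 stood at 2482 CPM in members of BRC cluster 18, 2886 CPM in those of cluster 14 and 618 CPM in those of cluster 6, and CSP2 at 173, 13.4 and 6.74 CPM.

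Cuticle proteins were raised in part. Of 11 tested in BRC 3 were higher and 1 lower, and of 13 tested in ddH2O 5 were higher and 1 lower, 3 of the 5 on 5 to 11 UMIs. Cpap3-b and Cpap3-d, which bind chitin, were higher in both, at 5.97-fold and 3.32-fold in BRC (55 and 86 UMIs) and at 6.32-fold and 6.71-fold in ddH2O (13 and 19 UMIs). Apd-2, an apidermin of the cuticle, was 2.53-fold higher in BRC members (2.39 to 2.67), with 3387 CPM in members of cluster 14 and 2226 CPM in its other nuclei. In ddH2O it stood at 60.3 against 104 CPM (0.580-fold, 0.421 to 0.779).

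Clusters 8 and 14 of BRC carried further cuticle genes. Members of cluster 8 held 4324 CPM of TyHyd, the tyrosine hydroxylase of dopamine synthesis and cuticle tanning, against 99.4 CPM in all other nuclei, 2138 CPM of the cuticle protein CPR14, 1107 CPM of Y-f, of the yellow family of pigmentation genes, and 965 CPM of the monoamine transporter Dat. Members of cluster 14 held 735 CPM of Wat, 1456 CPM of TyHyd and 261 CPM of the chitin-binding Cpap3-c. The transcription factor grh (grainyhead, LOC411079) is a regulator of epidermal barriers in Drosophila. It stood at 3935 CPM in cluster 14 members and 2276 CPM in cluster 8 members, against 111 CPM in cluster 6 members and 200 CPM in cluster 18 members. Over all nuclei of cluster 14, members or not, grh stood at 4093 CPM, so this level was not particular to the members. For the other genes of this paragraph, levels in the remaining nuclei of clusters 8 and 14 are not given. Over all BRC members grh was 2.03-fold the other nuclei (1.94 to 2.13), a call that ended against nuclei of like depth (log2 ratio 0.33 instead of 1.02).

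**Figure D3:**
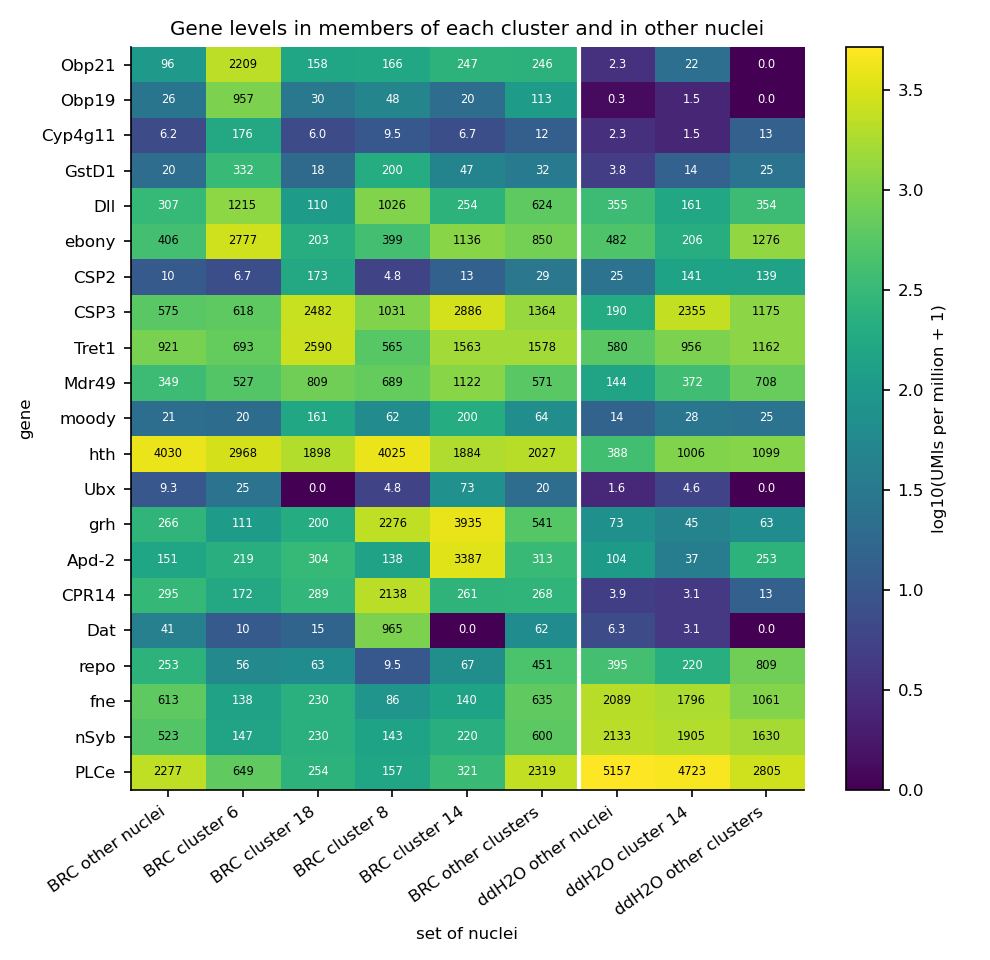
Levels of selected genes (rows) in the other nuclei of each library and in members by cluster (columns), coloured by log10 of CPM plus 1, with the CPM printed in each cell. Obp21 is highest in members of BRC cluster 6 (2209), grh (LOC411079) in those of BRC cluster 14 (3935), and CSP2 in those of BRC cluster 18 (173) and ddH2O cluster 14 (141).

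Leading genes of the ddH2O members were also higher in every set of BRC members, most often in cluster 18. The same genes of the rule chose the members in both libraries, so genes that go with them would recur. The numbers of recurring genes are therefore a description and test nothing. Of the 50 genes with the largest ddH2O ratios, 42 were 2-fold or more higher and 0 lower in BRC cluster 18 members, where 9.50% of all genes tested were higher. In the members of BRC cluster 6 the numbers were 26 higher and 6 lower (8.16% of all genes higher), in those of cluster 8 they were 29 and 2 (14.5%), in those of cluster 14 they were 31 and 2 (13.5%), and in the remaining BRC members 29 and 2 (4.76%). Of the 50 leading genes of all BRC members, 49 were higher and 0 lower in cluster 6 members. Those 611 nuclei are among the 1500 that gave the list, so this number tests nothing. In cluster 18 members 13 of the 50 were higher and 15 lower. In ddH2O cluster 14 members 32 of those 50 could be tested and 13 were higher (5.30% of all genes).

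Genes with a symbol shared by BRC cluster 18 and ddH2O cluster 14 members covered several roles. Reck, a membrane inhibitor of matrix proteases, stood at 379 and 187 CPM, Tg, a transglutaminase gene, at 146 and 36.9 CPM, Glob1, a globin gene, at 107 and 47.6 CPM, and the insulin receptor InR-2 at 277 and 174 CPM. Each was 2.40-fold to 15.9-fold above the remaining nuclei of its library. Mblk-1, a transcription factor known from mushroom body neurons of the bee, stood at 10894 and 5698 CPM, 2.79-fold and 2.05-fold above the rest.

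Over all members, 9582 genes were tested in both libraries and 213 were higher in both, which is 35.2% of the 605 higher in BRC and 43.0% of the 495 higher in ddH2O. Over all genes tested in both, 6.31% were higher in BRC and 5.17% in ddH2O. With counting intervals required, 190 were higher in both, 10 of them with a symbol: Obp21, Cpap3-b, GstD1, Cat, Cpap3-d, B-gluc1, CSP2, Tg, Reck and cact1. LOC550671 had the largest ratio that both libraries reached, at 298 against 32.6 CPM in BRC and 69.9 against 5.28 CPM in ddH2O. The 2 sets of other nuclei come from different libraries, so no sample is shared between these contrasts. The choice of members is shared, because the same genes of the rule, picked as markers from these data, chose them in both libraries. Genes that go with those of the rule would therefore recur, so the overlap describes the members and is no independent test.

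Among Hox genes only Antp and Ubx were matched by symbol in the files, of 9 listed. Ubx, which specifies posterior thoracic and abdominal segments in Drosophila, stood at 21.8 CPM in BRC members against 9.33 CPM in the other nuclei (2.34-fold, 1.83 to 2.95, 79 UMIs). In ddH2O members it stood at 4.11 against 1.60 CPM on 3 UMIs, a ratio of 2.57 with an interval of 0.523 to 7.69. In members of BRC cluster 14, where Antp was high, Ubx stood at 73.5 CPM, and it was highest over all clusters in cluster 37 (407 CPM), which held 4 members. In members of cluster 18 it was at 0.

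The homeodomain factor hth (homothorax), a cofactor of Hox proteins, went in opposite directions in the 2 libraries. The study lists it as a marker of optic lobe cells. It stood at 1016 against 388 CPM in ddH2O members (2.62-fold, 2.43 to 2.82) and at 2588 against 4030 CPM in BRC members (0.642-fold, 0.629 to 0.655). The BRC direction turned with depth. Against nuclei of like depth, the log2 ratio in BRC was 0.69 instead of -0.64. Dll (Distal-less), a factor of appendage identity, stood at 875 against 307 CPM in BRC (2.85-fold, 2.75 to 2.96) and at 182 against 355 CPM in ddH2O (0.513-fold, 0.430 to 0.609). Its level was 1215 CPM in cluster 6 members and 110 CPM in cluster 18 members.

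Glial markers did not move together. The glial factor repo was under the other nuclei in both libraries, at 179 against 253 CPM in BRC (0.708-fold, 0.653 to 0.765) and 284 against 395 CPM in ddH2O (0.717-fold, 0.623 to 0.823), and it stood at 55.6 CPM in cluster 6, 62.7 CPM in cluster 18 and 220 CPM in ddH2O cluster 14 members. The cortex glia marker zyd was lower in both, at 0.460-fold in BRC (33 UMIs) and 0.381-fold in ddH2O (18 UMIs). The ensheathing glia marker ebony (LOC409109), which encodes an enzyme that conjugates dopamine and histamine with beta-alanine, stood at 1723 against 406 CPM in BRC (4.24-fold, 4.13 to 4.36), with 2777 CPM in cluster 6 members, and at 322 against 482 CPM in ddH2O (0.668-fold, 0.585 to 0.759). Ranking on Antp alone turned ebony in BRC (log2 ratio -0.58). The other ensheathing marker, Ldgf4, stood at 162 against 138 CPM in BRC and 238 against 224 CPM in ddH2O. Of 4 astrocyte-like markers 0 passed 2-fold in either library. The glutamine synthetase GlnS was 1.54-fold (BRC) and 1.53-fold (ddH2O) the level of the other nuclei. The GABA transporters Gat-1B and Gat-a stood at 64.6 against 87.7 and 21.8 against 22.3 CPM in BRC, and at 129 against 152 and 52.1 against 64.2 CPM in ddH2O. The glutamate transporter Eaat-1 stood at 256 against 162 CPM in BRC and 138 against 133 CPM in ddH2O. Against nuclei of like depth the BRC log2 ratio of GlnS was 0.01 instead of 0.63, and that of ebony 1.32 instead of 2.08.

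Of the 3 markers that the study classes as surface glia, Mdr49, Tret1 and vkg, 0 reached 2-fold in BRC members and 1, Mdr49, did in ddH2O members. The transporter gene Mdr49 was 1.72-fold higher in BRC (1.65 to 1.80) and 2.84-fold higher in ddH2O (2.52 to 3.18). The collagen gene vkg stood at 57.9 against 53.1 CPM in BRC and 141 against 79.2 CPM in ddH2O. Tret1 stood at 1177 against 921 CPM in BRC and 978 against 580 CPM in ddH2O. In ddH2O members all 3 thus stood above the other nuclei. The receptor gene moody, which the study lists as an astrocyte marker and which is needed for the blood-brain barrier of surface glia in Drosophila, stood at 56.8 against 20.8 CPM in BRC (2.74-fold, 2.35 to 3.17) and at 27.4 against 14.4 CPM in ddH2O (1.90-fold, 1.16 to 2.95). The trehalose transporter Tret1 stood at 2590 CPM in cluster 18 members and 636 CPM in the other nuclei of that cluster, whereas moody stood at 161 and 390 CPM. Against BRC nuclei of like depth the log2 ratio of Tret1 was -0.13 instead of 0.35 and that of moody 0.77 instead of 1.45, under the threshold.

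**Figure D4:**
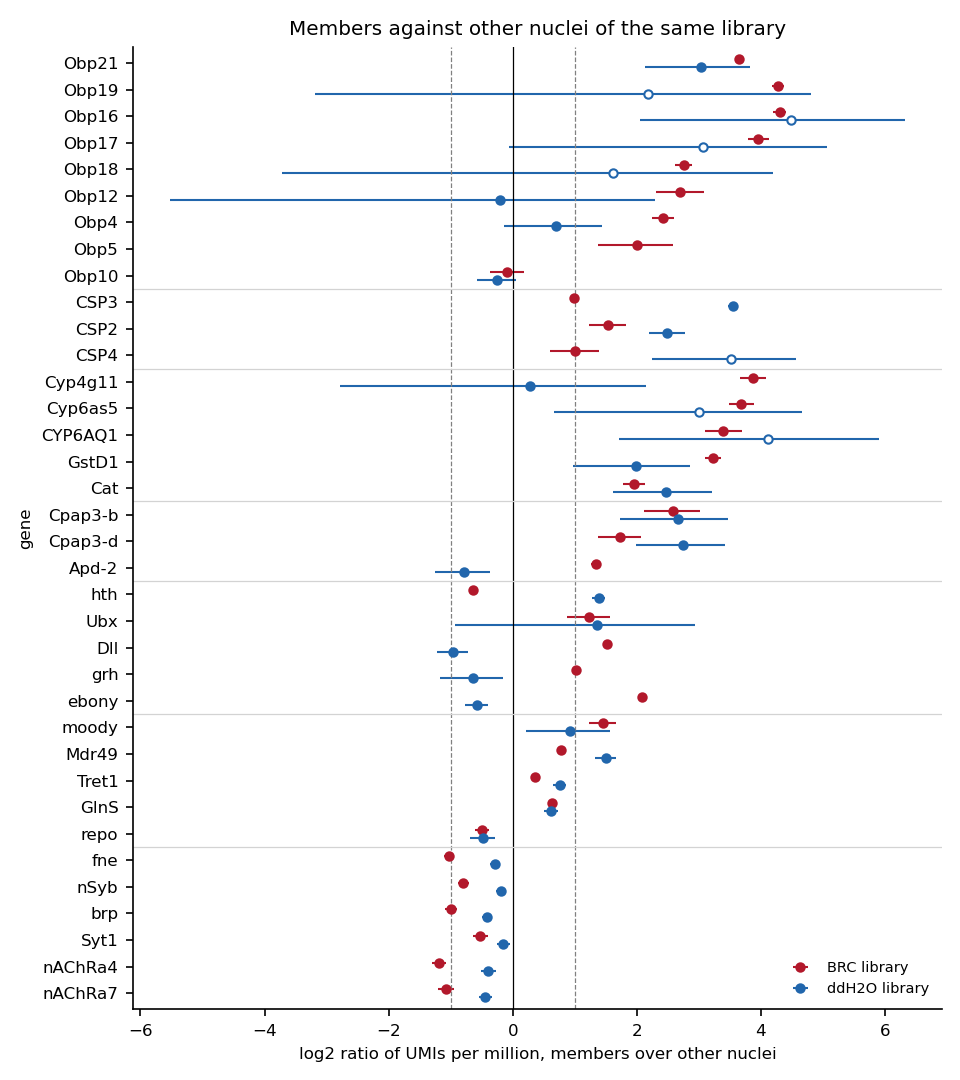
Log2 ratio of CPM in members over the other nuclei of the same library for genes of the listed families and markers, with 95% counting intervals; open circles have under 100 UMIs over both sides, a gene with no UMI in members is left out, and dashed lines mark 2-fold. Obp points of BRC other than Obp10 lie to the right, as do the P450 and ebony points of BRC. CSP3 lies at 11.7-fold in ddH2O and 1.99-fold in BRC, and the neuronal genes lie left of 0 in both libraries.

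Neuronal genes were under the other nuclei in both libraries, by more in BRC. The RNA-binding protein gene fne stood at 301 against 613 CPM in BRC (0.491-fold, 0.462 to 0.521) and at 1716 against 2089 CPM in ddH2O (0.822-fold, 0.777 to 0.869). The synaptic genes nSyb, brp and Syt1 were 0.575-fold, 0.502-fold and 0.698-fold in BRC and 0.879-fold, 0.750-fold and 0.902-fold in ddH2O. Of the nicotinic receptor subunits 5 of 10 were lower in BRC members, among them nAChRa4 (0.438-fold) and nAChRa7 (0.476-fold), and 0 of 10 in ddH2O. Of the 4 neuron markers only 1, fne, was 2-fold or more lower in BRC. NLG-3 (0.456-fold) was the 1 of 4 neuroligin and neurexin genes to pass, and PLCe (0.483-fold) the 1 of 3 Kenyon cell markers. The study also lists PKA-c1 for Kenyon cells, and this gene went the other way in BRC members, at 1.17-fold. Against nuclei of like depth the BRC ratios of fne, nSyb, brp and Syt1 were lower still (log2 -1.605, -1.43, -1.58 and -1.14).

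In ddH2O, neuronal RNA was found in nearly every nucleus. A UMI of fne was found in 94.5% of ddH2O members and 98.1% of the other nuclei, and of nSyb in 98.0% and 99.1%. The ddH2O cluster with the least fne still held 569 CPM, against 38.7 CPM in the lowest BRC cluster. The ddH2O ratios of every gene above were measured over this level, whose part in them was not tested. In BRC the fne shares were 29.1% and 54.8%, and 138 CPM was measured in members of cluster 6 and 230 CPM in those of cluster 18.

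Between the libraries, BRC and ddH2O members differed about as often as the other nuclei did. Of 5317 genes tested between members 895 were 2-fold or more higher in BRC (16.8%) and 724 lower (13.6%). Of 10650 genes tested between the other nuclei 1746 were higher (16.4%) and 1574 lower (14.8%). From means of log-normalized values 643 were higher and 1280 lower between members. The members of the 2 libraries were cut at different levels and come from different clusters, so treatment, preparation, depth and the makeup of the members cannot be told apart here.

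The largest differences between members were in genes that were nearly absent from ddH2O members. Obp19 stood at 513 CPM in BRC members and had 1 UMI in ddH2O members (1.37 CPM), a ratio of 374 with an interval of 67.1 to 14791. Mrjp6, of the royal jelly protein family, stood at 721 against 4.11 CPM (3 UMIs, interval 59.9 to 851), and between the other nuclei at 1479 against 4.77 CPM. Obp16 stood at 401 against 4.11 CPM between members and at 20.3 against 0.184 CPM between other nuclei. Br-c (Broad-complex), a transcription factor of the ecdysone response, was lower in BRC members, at 30.1 against 334 CPM, and stood at 78.9 against 451 CPM between other nuclei. Each of these differences was thus also present outside the members.

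For CSP3, ebony and Dll, chosen after their values were seen, members and other nuclei differed between the libraries in opposite directions. CSP3 stood at 1145 CPM in BRC and 2227 CPM in ddH2O members, and at 575 and 190 CPM in the other nuclei. For ebony the levels were 1723 and 322 CPM in members and 406 and 482 CPM in other nuclei. For Dll they were 875 and 182 CPM, and 307 and 355 CPM. In members of BRC cluster 18 and ddH2O cluster 14 alone, ebony stood at 203 and 206 CPM, Dll at 110 and 161 CPM, and CSP3 at 2482 and 2355 CPM.

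Of the genes that the study used as dopamine readouts, neither passed 2-fold against the other nuclei. The D2-like receptor gene Dop3 was 0.549-fold the other nuclei in BRC members (0.498 to 0.604) and 0.646-fold in ddH2O members (0.566 to 0.734). The kinase subunit gene PKA-c1 was 1.17-fold (1.13 to 1.22) and 0.898-fold (0.830 to 0.971). Between members, Dop3 was lower in BRC, at 120 against 325 CPM (0.371-fold, 0.316 to 0.436). Between other nuclei it stood at 219 and 503 CPM (0.436-fold, 0.428 to 0.444). PKA-c1 was 0.892-fold between members and 0.684-fold between other nuclei. The neuron markers fne, nSyb, brp and Syt1 were 0.160-fold to 0.175-fold between the same members, and their part in the Dop3 ratio was not tested. By qPCR on pooled brains, relative to GAPDH, the study found Dop3 higher and PKA-c1 lower with bromocriptine. Of 11 energy enzyme genes, 0 passed 2-fold in BRC members and 2 did in ddH2O members, of which fbp, the fructose bisphosphatase of gluconeogenesis, stood at 84.9 against 37.7 CPM (2.25-fold, 1.72 to 2.90) and Dera had 5 UMIs.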

How the data were processed

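The authors made the deposited matrices with Cell Ranger (7.2.0 in the BRC header, 7.0.1 in the ddH2O header and the submitters' notes) from reads aligned to Amel_HAv3.1, as UMI counts per gene and barcode, without normalization. The matrices list 20000 barcodes each, with 76531513 UMIs in BRC and 77047419 in ddH2O, and how those barcodes were chosen is not given in the sources used here. The 12200 genes listed for both were used. Of these, 11538 have no symbol beyond LOC and a number. Gene names such as fne or repo for LOC numbers follow the study's marker lists, though moody, Eaat-1, hth, tsh and PKA-c1 were placed in other lists here. Of 139 list entries 58 could be matched.

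Counts of a set of nuclei were added and divided by the set's total. Levels (CPM) carry exact Poisson intervals, ratios exact conditional intervals and shares Clopper-Pearson intervals, at 95%. A count of 0 gave a bound against a floor of 3 UMIs over the set, kept where it showed a direction. PCR and nuclei add spread that these intervals leave out. Clusters were made per library by the Leiden method (leidenalg 0.10.2, resolution 1.0, 2000 variable genes, 30 principal components, 20 neighbours) without the 4 genes of the rule, and received no cell type names. Doublets were scored by simulated doublets and marked at 0.8% per 1000 nuclei. Shares at 1 depth used counts thinned to 1000 UMIs. Ratios and their intervals were tried on counts simulated with counting error only. Ranking, clustering, thinning and doublet scoring were not tested in this way.

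Genes were named from the fixed lists, from the 20 largest and 8 smallest ratios per library among genes detected in more than 10% of nuclei on at least 1 side, and from the 10 largest and 10 smallest between libraries. Genes with a symbol named for clusters, for the shared leading genes and in the families were chosen after their values were seen. The members, lists and families were all chosen with earlier results of these data known. The work used Python 3.11.15 with scikit-learn 1.9.0, pandas 2.3.3, scipy 1.17.1 and numpy 2.4.6.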

Additional observations from a re-analysis of the deposited data

Results flagged for a closer look

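Among the listed genes with at least 100 UMIs over both sides in each library, 5 had ratios of members over other nuclei on opposite sides of 1 in BRC and ddH2O, with counting intervals that excluded 1 in both. They were Dll (2.85 in BRC and 0.513 in ddH2O), ebony (4.24 and 0.668), grh (2.03 and 0.641), PKA-c1 (1.17 and 0.898) and hth (0.642 and 2.62). With 1 library per condition the difference between the libraries was not tested. For hth the BRC ratio turned when only nuclei of like depth were compared.

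The 54 BRC barcodes with over 5000 genes lie outside the range the nuclei were taken from. They held 287 UMIs of the 4 genes among 2471404, which is 116 CPM (103 to 130), against 71.2 CPM in the BRC nuclei that were not members and 45.5 CPM in the ddH2O ones. Of these UMIs 21 were Antp.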

How the results depend on the processing

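Of the 2002 log2 ratios of single genes recomputed under other settings, 1195 stayed within the main counting interval, 783 left it, and 24 changed direction. A change of direction was counted only for genes past 2-fold in the main setting. Other changes of sign, such as those of hth and Tret1 against nuclei of like depth, are not among the 24. Counts of genes were judged apart and are named below where they moved by more than 1.5 times. No paired analysis was possible because each condition has 1 library, so no replicate could be left out either. The number of genes higher in BRC members (743) became 388 in the 608 nuclei with an Antp UMI and 378 with each nucleus thinned to 1000 UMIs. For ddH2O (518) it became 787 with 100 members, 814 with a minimum of 20 UMIs, and 1473 in the 23 members outside cluster 14. The number of genes 2-fold apart between BRC and ddH2O members (1619) became 817 with the top 200 of each library (317 higher and 500 lower in BRC), 1001 thinned, 2832 with a minimum of 20 UMIs, and 708 between members of BRC cluster 18 and ddH2O cluster 14 (237 higher and 471 lower). With means of log-normalized values the split was 643 higher and 1280 lower, against 895 and 724. At a clustering resolution of 0.5 the ddH2O cluster with most members held 80% of them instead of 88.5%. Without thinning, the shares of members with a UMI were 16.1% for Antp, 20.5% for LOC411706, 82.3% for LOC552149 and 41.8% for LOC410915 in BRC, and 30%, 75%, 95.5% and 61.5% in ddH2O.

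Ranking on Antp alone gave most of the 24 counted changes of direction. The log2 ratios in BRC then were -0.057 for CSP2, -0.075 for Cyp6as5, -0.047 for Dll, 0.22 for LOC408517, -0.58 for ebony (LOC409109), -0.10 for moody (LOC409159), 0.26 for LOC409787, -0.72 for LOC725026, -0.56 for Obp12, -0.14 for Obp16, -0.33 for Obp18, -0.36 for Obp4, -2.17 for Obp5 and 1.58 for Obp9. Between BRC and ddH2O they were -0.62 for ebony and -0.23 for moody. The top 200 BRC nuclei gave -0.69 for grh (LOC411079). Thinning gave 0.07 for LOC408517, 0.16 for LOC409787 and -0.12 for Obp5. Without BRC cluster 6 Obp12 was at -1.38. Between members of BRC cluster 18 and ddH2O cluster 14 the values were 0.29 for CSP2, -0.55 for Dll and -0.021 for ebony. The cause was not tested. Leaving out clusters, comparing single clusters, requiring 4 UMIs of the 4 genes and requiring a counting interval were chosen after seeing the data.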
